A study of Mus musculus with 30 samples.

Results

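The 10 genes described here are circadian clock genes and clock output genes of mouse liver: Dbp, Tef, Hlf, Per1, Per2, Per3, Arntl, Clock, Nr1d1 and Nr1d2. They were taken by gene symbol out of 18193 genes represented on the arrays by a probe set annotated to a single gene. A gene with several such probe sets was read from the brightest of them on average over the 30 arrays. All 10 genes were above the array's median signal on 30 of 30 arrays and entered the test with 12795 genes in all.

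Liver RNA of adult male mice on a C57BL/6J background was hybridised to 30 Affymetrix arrays in 10 groups of 3. The wild-type mice (WT) were compared with mice in which the nuclear receptors CAR and PXR, which switch on drug-metabolising genes when foreign chemicals reach the liver, were humanised (hCAR/hPXR) or deleted (CARko/PXRko), and with mice lacking PXR alone (PXRko). Corn oil (CO, 0 mg/kg for 3 days) was given to all 4 genotypes. The solvent and deodorant chemical 1,4-dichlorobenzene (DCB, 600 mg/kg by daily gavage for 3 days) and the steroidal anti-androgen and progestin cyproterone acetate (CPA, 160 mg/kg by daily gavage) were given to WT, hCAR/hPXR and CARko/PXRko mice. The sample labels give CPA for 6 days in WT and hCAR/hPXR mice and for 3 days in CARko/PXRko mice, whereas the protocol gives 3 days throughout. With the labelled times, CPA and its 3 day corn oil control differ in duration in 2 of 3 genotypes. For CPA, duration cannot be told apart from genotype where CARko/PXRko mice are compared with WT or hCAR/hPXR mice. Livers were taken one day after treatment, and the labels give no hour of killing, so a difference in hour between groups cannot be told apart from treatment. The design states 5 mice per group. The labels do not say that the 3 arrays are separate mice, so the spread behind each p-value is that between arrays and may be technical.

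The clock is a feedback loop of transcription. CLOCK and ARNTL (also called BMAL1) pair up and activate genes through E-box sequences, among them the Period genes, whose proteins then inhibit the pair, and Nr1d1 and Nr1d2 (REV-ERB alpha and beta), whose proteins repress Arntl through ROR elements. Dbp, Tef and Hlf encode the PAR bZIP factors, which bind D-box sequences and pass the rhythm on to metabolic genes of the liver. In mouse liver Dbp and Arntl transcripts peak at opposite times of day.

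Promoter sequences are shown for Dbp and Nr1d1, which fell under CPA, and for 4 members whose windows hold one of the clock's binding letters. RefSeq windows (GRCm38.p6, 250 bases before to 50 bases after a start site, read 5′ to 3′ on the gene's strand) matched 9 of 10 members by symbol, in 14 windows, with none for Per2. Capitals mark an E-box, CACGTG (Tef and Per1), a D-box, TTATGTAA or TTACGTAA (Per3), or the core of a ROR element, TAGGTCA or TGGGTCA (Arntl), searched on both strands.
Dbp (chr7:45704997-45705296, + strand): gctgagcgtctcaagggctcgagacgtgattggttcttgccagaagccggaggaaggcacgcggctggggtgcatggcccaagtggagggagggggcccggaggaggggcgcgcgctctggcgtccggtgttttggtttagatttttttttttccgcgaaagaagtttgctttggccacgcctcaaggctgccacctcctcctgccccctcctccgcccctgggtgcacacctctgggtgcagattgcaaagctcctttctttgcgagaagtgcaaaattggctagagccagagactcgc
Per3 (chr4:151044616-151044915, - strand): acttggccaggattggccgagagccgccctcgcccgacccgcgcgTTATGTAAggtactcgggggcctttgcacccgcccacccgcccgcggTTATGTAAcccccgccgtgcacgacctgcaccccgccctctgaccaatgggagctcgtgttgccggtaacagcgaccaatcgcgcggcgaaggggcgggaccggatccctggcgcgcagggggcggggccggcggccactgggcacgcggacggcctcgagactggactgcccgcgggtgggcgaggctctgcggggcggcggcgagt
Arntl (chr7:113207261-113207560, + strand): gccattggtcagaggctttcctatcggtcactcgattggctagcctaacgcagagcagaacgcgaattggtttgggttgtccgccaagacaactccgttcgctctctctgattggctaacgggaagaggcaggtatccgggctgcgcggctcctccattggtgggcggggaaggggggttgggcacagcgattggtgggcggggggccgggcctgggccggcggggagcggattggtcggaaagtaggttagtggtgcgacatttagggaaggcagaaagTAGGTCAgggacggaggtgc
Tef (chr15:81811164-81811463, + strand): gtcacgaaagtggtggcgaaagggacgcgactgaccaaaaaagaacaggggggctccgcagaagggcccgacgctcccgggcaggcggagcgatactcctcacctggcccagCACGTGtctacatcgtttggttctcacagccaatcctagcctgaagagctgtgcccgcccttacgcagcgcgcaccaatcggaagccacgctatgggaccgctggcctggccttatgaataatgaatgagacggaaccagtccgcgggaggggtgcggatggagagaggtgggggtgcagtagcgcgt
Per1 (chr11:69098699-69098998, + strand): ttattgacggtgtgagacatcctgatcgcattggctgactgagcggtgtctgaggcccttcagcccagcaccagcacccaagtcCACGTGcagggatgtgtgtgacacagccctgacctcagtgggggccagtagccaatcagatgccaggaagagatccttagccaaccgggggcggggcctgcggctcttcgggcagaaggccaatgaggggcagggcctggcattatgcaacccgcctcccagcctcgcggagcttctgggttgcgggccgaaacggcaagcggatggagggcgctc
Nr1d1 (chr11:98775328-98775627, - strand): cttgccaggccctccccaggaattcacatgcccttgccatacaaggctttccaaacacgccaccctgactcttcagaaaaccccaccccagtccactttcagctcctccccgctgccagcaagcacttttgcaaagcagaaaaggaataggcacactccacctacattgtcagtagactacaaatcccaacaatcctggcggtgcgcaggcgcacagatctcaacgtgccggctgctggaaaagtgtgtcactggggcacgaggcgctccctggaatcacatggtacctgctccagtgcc
The Per3 window held 2 D-boxes, with first bases at -205 and -158 from the start site. Such a letter run occurred in 1.06% of 32851 RefSeq promoter windows of the same length. The E-box of Per1 had its first base at -166, both Tef windows held one, and 7.15% of all windows did. The ROR core of Arntl had its first base 31 bases after the start site of its second window, and 6.45% of all windows held such a core. Hlf held a cyclic AMP response element, TGACGTCA, present in 1.79% of all windows. None of these 4 motifs was found in the windows of Dbp, Clock, Nr1d1 or Nr1d2. The search covered exact letter runs within these windows only, so sites elsewhere or with other letters would be missed. The Dbp gene itself lies at chr7:45705100-45710203, Arntl at chr7:113178471-113314126, Clock at chr5:76209868-76305603 and Nr1d1 at chr11:98767932-98775377.

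Array medians lay between 5.36 and 5.44 on the log2 scale, and the median of 5 hepatocyte markers lay between 14.67 and 15.04 on every array. The mouse transcripts of CAR (Nr1i3) and PXR (Nr1i2) followed the labels. Nr1i3 was at most 6.86 on hCAR/hPXR and CARko/PXRko arrays against at least 9.32 on WT and PXRko arrays, and Nr1i2 was at most 4.97 on arrays of the 3 modified genotypes against at least 6.74 in WT. On 4 arrays the median of 10 skeletal muscle markers exceeded the WT corn oil level: CO CARko/PXRko replicate 2 by 7.90, CO PXRko replicate 3 by 2.08, and DCB CARko/PXRko replicates 2 and 3 by 2.64 and 7.84 (log2). DCB CARko/PXRko replicate 3 also exceeded it by 8.18 for 5 brown fat markers and 7.22 for 4 adrenal cortex markers. DCB CARko/PXRko replicate 2 exceeded it by 3.73 for 5 squamous epithelium markers. Treatment effects in CARko/PXRko mice are given below with and without these arrays. The median of the 5 Kupffer cell markers, all measured and none below the array median on all arrays, lay between 9.89 and 10.91 on corn oil arrays and between 9.03 and 10.40 on treated arrays. Under CPA the median of 4 stellate cell markers was lower than on corn oil without overlap in all 3 genotypes, at 8.81 to 9.17 against 9.40 to 10.04 in WT, 8.69 to 8.94 against 9.24 to 10.17 in hCAR/hPXR and 8.51 to 9.02 against 9.61 to 10.53 in CARko/PXRko mice. The median shift per stellate marker from the WT corn oil level did overlap the controls in WT mice (-0.27 to -0.12 against -0.26 to 0.23). It also overlapped in hCAR/hPXR mice (-0.57 to -0.24 against -0.30 to 0.34). In CARko/PXRko mice it did not (-0.48 to -0.20 against -0.17 to 0.22). The median level of 4 endothelial markers was higher under CPA, at 8.82 to 9.13 against 7.32 to 8.17 in WT mice. In CARko/PXRko mice it was 8.68 to 9.32 against 7.21 to 7.85. In hCAR/hPXR mice it was 9.10 to 9.35 against 7.29 to 9.14, which overlapped. The median shift per endothelial marker showed no such rise and overlapped the controls in all 3 genotypes. In WT mice that shift was -0.09 to 0.08 under CPA against -0.25 to 0.14 on corn oil. The median of 4 measured lymphocyte markers lay below the controls in hCAR/hPXR (5.28 to 5.39 against 5.67 to 5.94) and CARko/PXRko mice (5.49 to 5.64 against 5.77 to 5.88). These marker medians differed between treatments, and their part in the results below was not tested. In whole liver, fewer cells of a type and less RNA per cell cannot be told apart.

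Dbp, the output factor with the largest day-night swing of the PAR bZIP genes in mouse liver, varied most among the 10 genes, over 6.06 log2 units between arrays. On corn oil arrays Dbp read 12.39, 12.58 and 12.36 in WT and 12.07, 11.90 and 11.80 in hCAR/hPXR mice. It read 11.84, 10.87 and 11.93 in CARko/PXRko mice and 12.38, 11.70 and 11.52 in PXRko mice on corn oil. The WT arrays were the highest group and lay above all corn oil arrays of the hCAR/hPXR and CARko/PXRko genotypes.
Under CPA, Dbp read 6.52, 9.13 and 8.56 in CARko/PXRko mice, and every one of these arrays lay below every corn oil array of that genotype. It read 11.37, 6.55 and 10.42 in hCAR/hPXR mice, 1 very low array and 2 nearer to the controls, all below them. In WT mice it read 11.38, 11.51 and 11.99, also below every WT control.
The group mean of CPA CARko/PXRko, 8.07, was the lowest of the 10, and that of CO WT, 12.44, the highest. Among CARko/PXRko mice Dbp fell by 3.47 ± 0.74 on the log2 scale under CPA (SE, n = 3 per group here and below), which is 11.1-fold lower (adjusted p = 0.00626). Each SE rests on a spread shared by all 10 groups, not on that of the groups compared. The Dbp difference was -2.48 ± 0.74 in hCAR/hPXR mice (adjusted p = 0.0565) and -0.81 ± 0.74 in WT mice (adjusted p = 0.85). With the WT groups fitted alone in limma, the WT difference did pass (adjusted p = 0.0196). The hCAR/hPXR difference, 5.58-fold, did not pass the threshold of 0.05. It was -1.03 without CPA hCAR/hPXR replicate 2 (adjusted p = 0.307), -3.44 without replicate 1 (adjusted p = 0.00871) and -2.97 without replicate 3 (adjusted p = 0.0466), so its size and its call depended on single arrays. Within groups Dbp had an SD between 0.12 (CO WT) and 2.55 (CPA hCAR/hPXR). The call in CARko/PXRko mice was lost without replicate 1 of the CPA group, when the difference was -2.70 (adjusted p = 0.0512), and when the model was fitted to the 2 groups alone (adjusted p = 0.0705). Without the 4 arrays with muscle transcripts the difference was -3.81 (adjusted p = 0.0137).

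Under DCB, Dbp read 9.75, 10.38 and 10.21 in hCAR/hPXR mice, all below the controls of that genotype. It read 11.08, 11.73 and 11.96 in WT mice, again without overlap with the controls, and 11.04, 11.24 and 11.81 in CARko/PXRko mice, where the groups overlapped. The differences were -1.81 ± 0.74 in hCAR/hPXR mice (95% interval -3.33 to -0.28, adjusted p = 0.138), -0.85 ± 0.74 in WT mice (adjusted p = 0.798) and -0.19 ± 0.74 in CARko/PXRko mice (adjusted p = 0.986). None passed the threshold. With the hCAR/hPXR groups fitted alone, the DCB difference did pass (adjusted p = 0.0217).

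Tef and Hlf, the other PAR bZIP factors, passed the test in none of the 6 treatment comparisons. Tef group means spanned 9.79 (CPA CARko/PXRko) to 10.88 (CO WT). On DCB, Tef read 9.95, 9.97 and 9.78 in hCAR/hPXR mice against 10.55, 10.73 and 10.20 on corn oil, which did not overlap, with a difference of -0.60 ± 0.29 (adjusted p = 0.218). Under CPA in CARko/PXRko mice it read 9.36, 9.38 and 10.62, so that 2 arrays lay below the corn oil values of 10.45, 10.03 and 10.55 and 1 above them. That difference was -0.56 ± 0.29 (adjusted p = 0.274), and without the high array it was -0.97 (adjusted p = 0.0297). Hlf moved least, with group means from 7.86 to 8.63 and treatment differences between -0.37 and 0.31. The interval for Hlf under CPA in CARko/PXRko mice was -0.59 to 0.68.

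**Figure D1:**
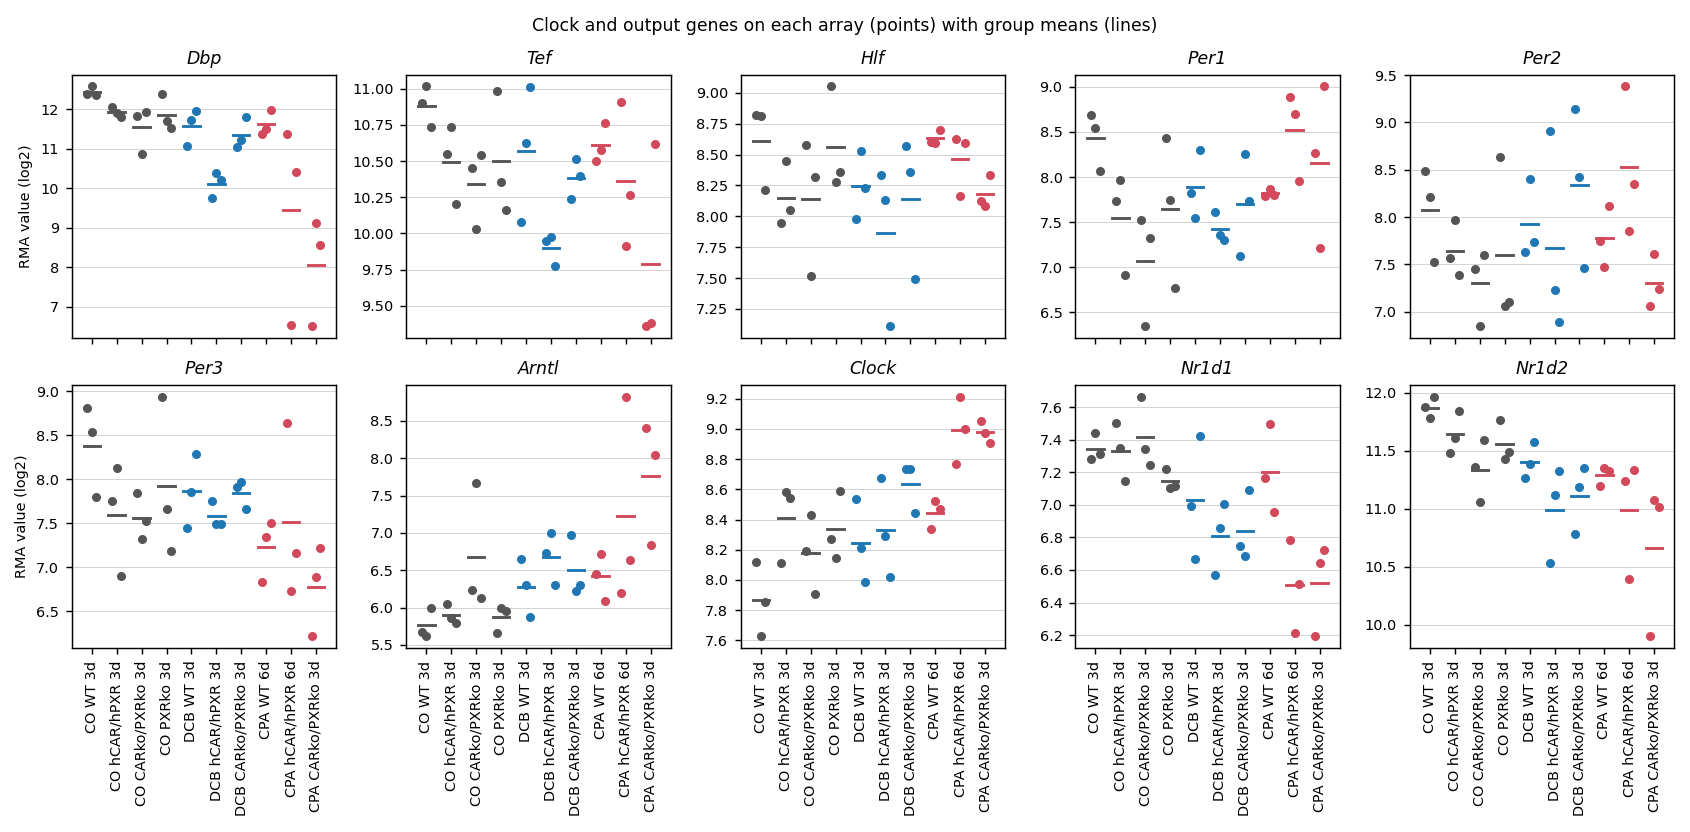
Log2 RMA value (vertical axes, a separate range for each gene) of the 10 clock and output genes in the 10 groups (horizontal axis), with a point for each of 3 arrays and a line at the group mean; grey is corn oil, blue DCB and red CPA. Dbp falls to 6.52 and 6.55 on 2 CPA arrays, and Clock is highest in the CPA hCAR/hPXR and CPA CARko/PXRko groups.

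The Period genes encode the repressors of the loop. Per1 read 8.68, 8.54 and 8.07 in CO WT and 7.53, 6.35 and 7.32 in CO CARko/PXRko mice, without overlap. Under CPA it read 8.89, 8.70 and 7.96 in hCAR/hPXR mice and 8.26, 7.21 and 9.0 in CARko/PXRko mice. In WT mice the 3 CPA arrays read 7.79, 7.87 and 7.80. The WT arrays thus lay below their controls, while in the other genotypes the groups overlapped and the CPA means were higher. The differences were -0.61 ± 0.42 in WT (adjusted p = 0.737), 0.97 ± 0.42 in hCAR/hPXR (adjusted p = 0.239) and 1.09 ± 0.42 in CARko/PXRko mice (adjusted p = 0.132). None passed the threshold, and without CPA CARko/PXRko replicate 2 the last was 1.57 (adjusted p = 0.0399).
Per2 passed in no comparison either. Its treatment differences with the largest size were 1.05 ± 0.49 for DCB in CARko/PXRko mice (adjusted p = 0.592) and 0.89 ± 0.49 for CPA in hCAR/hPXR mice (adjusted p = 0.397). Both groups overlapped their controls, and the lowest and highest arrays of Per2 over the study were 6.85 and 9.38.
Per3 read 6.84, 7.35 and 7.51 under CPA in WT mice against 8.82, 8.53 and 7.80 on corn oil. In CARko/PXRko mice it read 6.22, 6.89 and 7.22 under CPA against 7.85, 7.32 and 7.52. Neither pair of groups overlapped, and the differences were -1.15 ± 0.43 (adjusted p = 0.263) and -0.79 ± 0.43 (adjusted p = 0.297). With the WT groups fitted alone in limma, the WT difference passed (adjusted p = 0.034). In hCAR/hPXR mice the Per3 difference was -0.08 ± 0.43, with an interval from -0.96 to 0.81.

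Arntl encodes the partner of CLOCK in the activating arm. On corn oil it read 5.68, 5.62 and 6.00 in WT, 6.05, 5.86 and 5.80 in hCAR/hPXR and 5.66, 5.99 and 5.95 in PXRko mice. The CO CARko/PXRko arrays read 6.24, 7.67 and 6.12, and the high one is the array with muscle transcripts. Under CPA, Arntl read 6.20, 8.82 and 6.64 in hCAR/hPXR and 8.40, 6.83 and 8.05 in CARko/PXRko mice.
The CPA arrays of hCAR/hPXR mice all lay above their controls, and those of CARko/PXRko mice overlapped them through the muscle array. In WT mice CPA gave 6.45, 6.72 and 6.09, above all WT controls. The differences were 0.66 ± 0.48 in WT (adjusted p = 0.768), 1.32 ± 0.48 in hCAR/hPXR (adjusted p = 0.14) and 1.08 ± 0.48 in CARko/PXRko mice (adjusted p = 0.197). The hCAR/hPXR difference was 0.52 without CPA replicate 2 (adjusted p = 0.601). Without the muscle arrays the CARko/PXRko difference was 1.58 (adjusted p = 0.0893). Under DCB, Arntl read 6.65, 6.30 and 5.87 in WT, 6.73, 7.0 and 6.30 in hCAR/hPXR and 6.97, 6.23 and 6.31 in CARko/PXRko mice. The hCAR/hPXR arrays did not overlap their controls (0.77 ± 0.48, adjusted p = 0.353), whereas those of the other genotypes did.

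Clock, which encodes the other activator, read 9.06, 8.97 and 8.91 under CPA in CARko/PXRko mice against 8.19, 8.43 and 7.91 on corn oil. It read 8.76, 9.21 and 9.0 under CPA in hCAR/hPXR mice against 8.11, 8.58 and 8.54. In WT mice it read 8.34, 8.52 and 8.47 against 8.12, 7.63 and 7.85. In each of the 3 genotypes every CPA array lay above every corn oil array.
Clock rose by 0.80 ± 0.19 in CARko/PXRko mice, 1.74-fold (adjusted p = 0.0122), and by 0.93 without the muscle arrays (adjusted p = 0.00992). The differences of 0.58 ± 0.19 in both other genotypes did not pass (adjusted p = 0.0788 in hCAR/hPXR and 0.155 in WT). The CARko/PXRko call was lost without CO CARko/PXRko replicate 3 (0.67, adjusted p = 0.0732), with the 2 groups fitted alone (adjusted p = 0.0884), and with the mean of all Clock probe sets (0.47, adjusted p = 0.0632), which moved the value by over 1.5 times. With that mean, limma called Clock higher in hCAR/hPXR (0.82, adjusted p = 0.00131) and WT mice (0.60, adjusted p = 0.0412) instead. With the WT groups fitted alone, the probe set used also passed in WT mice (adjusted p = 0.0421). Under DCB, Clock read 8.53, 8.21 and 7.99 in WT, 8.68, 8.29 and 8.02 in hCAR/hPXR and 8.74, 8.73 and 8.44 in CARko/PXRko mice. The CARko/PXRko arrays alone did not overlap their controls, by 0.46 ± 0.19 (adjusted p = 0.508).

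Nr1d1 and Nr1d2 encode the REV-ERB repressors of Arntl. Nr1d1 read 6.19, 6.64 and 6.72 under CPA in CARko/PXRko mice against 7.66, 7.34 and 7.25 on corn oil. In hCAR/hPXR mice it read 6.79, 6.21 and 6.52 against 7.50, 7.35 and 7.14. Neither pair overlapped, whereas the WT arrays at 7.16, 7.49 and 6.95 under CPA surrounded the controls at 7.28, 7.44 and 7.31.
With CPA, Nr1d1 fell 1.86-fold among CARko/PXRko mice, a log2 difference of -0.90 ± 0.19 (adjusted p = 0.00668). It fell 1.77-fold among hCAR/hPXR mice, a difference of -0.83 ± 0.19 (adjusted p = 0.0121). The WT difference was -0.14 ± 0.19 (adjusted p = 0.926). Without the muscle arrays the CARko/PXRko difference was -0.94 (adjusted p = 0.0186). The CARko/PXRko call was lost without CO CARko/PXRko replicate 1 (-0.77, adjusted p = 0.0552) and with the 2 groups alone (adjusted p = 0.102). The hCAR/hPXR call was lost without CO hCAR/hPXR replicate 1 (-0.74, adjusted p = 0.0804), without CPA hCAR/hPXR replicate 2 (-0.68, adjusted p = 0.0682) and with the 2 groups alone (adjusted p = 0.0514).
Under DCB, Nr1d1 read 6.57, 6.85 and 7.0 in hCAR/hPXR and 6.75, 6.69 and 7.09 in CARko/PXRko mice, below the controls of each. In WT mice it read 6.99, 6.67 and 7.43, overlapping them. The differences, -0.52 ± 0.19 (adjusted p = 0.0981), -0.58 ± 0.19 (adjusted p = 0.345) and -0.32 ± 0.19 (adjusted p = 0.635), did not pass.
Nr1d2 lay on the lower side in all 6 treatment comparisons, between -0.23 and -0.67, and passed in none (adjusted p from 0.134 to 0.893). With the WT groups fitted alone in limma, the CPA difference of Nr1d2 in WT mice, -0.58, passed (adjusted p = 0.0137). The Nr1d2 groups did not overlap under CPA in WT (11.20, 11.35 and 11.33 against 11.87, 11.78 and 11.97) and hCAR/hPXR mice (11.24, 10.39 and 11.34 against 11.48, 11.61 and 11.84). In CARko/PXRko mice it read 9.90, 11.08 and 11.02 under CPA against 11.36, 11.06 and 11.59, which overlapped by 1 array. The control at 11.06 is the array with muscle transcripts, and every CPA array lay below the other controls.

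**Figure D2:**
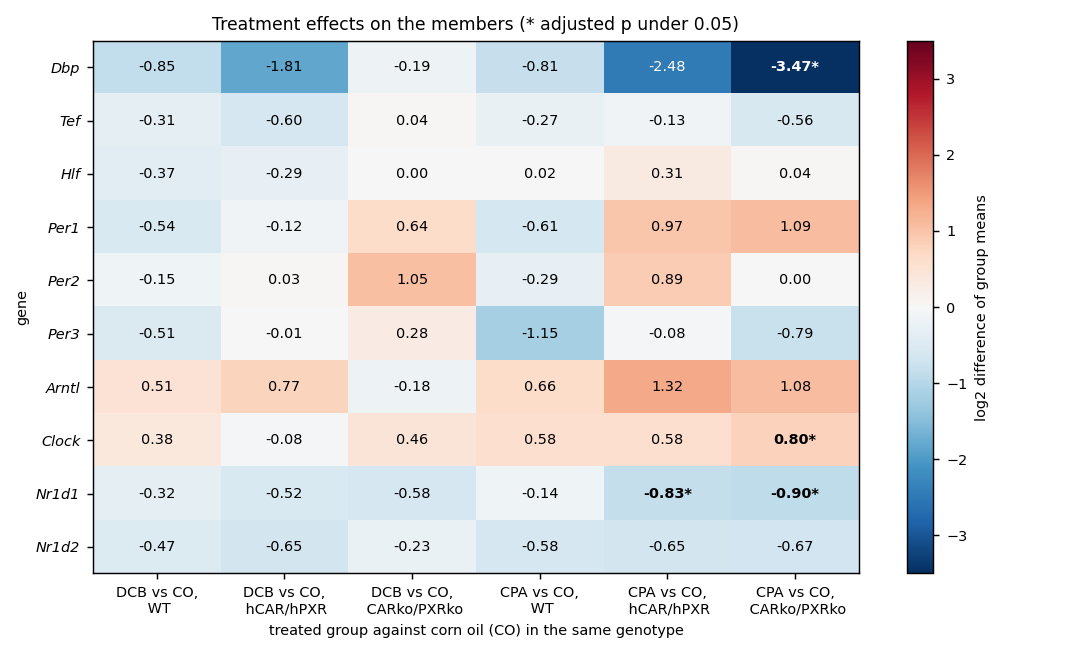
Log2 difference between each treated group and the corn oil group of the same genotype (columns) for the 10 genes (rows), printed in each cell and coloured from blue (lower) to red (higher); a star marks an adjusted p under 0.05. The 4 starred cells are Dbp, Clock and Nr1d1 under CPA in CARko/PXRko mice and Nr1d1 under CPA in hCAR/hPXR mice.

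Counted over the 10 genes, CPA in CARko/PXRko mice changed 3 (Clock higher, Dbp and Nr1d1 lower), where 5.49% of the 12795 genes were called. An unadjusted p under 0.05 was found for 6 of the 10 and for 21.1% of all genes. CPA in hCAR/hPXR mice changed 1 (Nr1d1 lower) with 4.42% of all genes called, and the unadjusted p was under 0.05 for 6 of the 10 and 16% of all genes. CPA in WT mice changed 0, with 1.12% called, and 3 were at an unadjusted p under 0.05 in limma against 10.3% of all genes. With limma's array weights none of the 3 calls in CARko/PXRko mice passed (adjusted p = 0.0747 for Dbp, 0.112 for Clock and 0.103 for Nr1d1). DCB changed 0 of 10 in each genotype by limma. The share of all genes called was 0.735% in WT mice, 7.64% in hCAR/hPXR mice and 0.117% in the CARko/PXRko genotype, and 0, 3 and 3 of the members had an unadjusted p under 0.05, against 10.1%, 23% and 8.1% of all genes. Without the arrays with muscle transcripts, which leaves 1 DCB array in CARko/PXRko mice that is assumed to vary like the other groups, 0 passed again. The DCB difference there was then -0.85 for Dbp, 1.62 for Per2, 0.68 for Clock, -0.71 for Nr1d1 and -0.69 for Nr1d2, and that of Arntl turned from -0.18 to 0.79. It also turned for Tef, from 0.04 to -0.26, and for Per1, from 0.64 to -0.29, and was 0.12 for Hlf and 0.23 for Per3. Under CPA in the same genotype, leaving out the 4 muscle arrays, 1 of them a control, gave 3 calls of the same genes. The uncalled CPA differences were then -0.71 for Tef, 0.74 for Per1, -0.91 for Per3 and -0.81 for Nr1d2, and those of Hlf and Per2, near 0 with all arrays, were -0.27 and -0.22. The median log2 difference of the members was -0.28 for CPA in CARko/PXRko mice and 0.12 in hCAR/hPXR mice, against -0.01 and -0.02 over all genes.
Counts of genes whose arrays did not overlap the controls were close to the background or above it. They were 2 of 10 for DCB in WT (21.7% of all genes), 5 in hCAR/hPXR mice (23.9%) and 2 in the CARko/PXRko genotype (11.6%). For CPA they were 6 of 10 in WT (26.1%), 5 in hCAR/hPXR mice (22.7%) and 4 in the CARko/PXRko genotype (23.7%). Among those that did not overlap, Dbp was lower in 5 of the 6 comparisons, Nr1d2 lower in 4, Clock higher in 4, and Nr1d1 lower in 4, and Arntl higher in 3.

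CPA was set against DCB within each genotype, with the labelled durations differing in WT and hCAR/hPXR mice. In CARko/PXRko mice, where both were given for 3 days, Dbp was lower under CPA than under DCB, with a log2 difference of -3.29 ± 0.74 (adjusted p = 0.00915), and the arrays did not overlap. It was the 1 member of 10 called, with 7.6% of all genes called. This call was lost without CPA CARko/PXRko replicate 1 (-2.51, adjusted p = 0.0641) and without the arrays with muscle transcripts, which leaves 1 DCB CARko/PXRko array (-2.97, adjusted p = 0.199). It was also lost with the 2 groups fitted alone (adjusted p = 0.152) and with array weights (adjusted p = 0.316). In hCAR/hPXR mice Clock was higher under CPA than under DCB by 0.66 ± 0.19 (adjusted p = 0.0259), again 1 of 10, with 9.31% of all genes called. That call was lost in 4 of 6 fits that left out an array (without CPA hCAR/hPXR replicate 2 or 3, or DCB hCAR/hPXR replicate 2 or 3; adjusted p up to 0.134) and with the 2 groups alone (adjusted p = 0.225). In WT mice 0 of 10 were called by limma, 0 had an unadjusted p under 0.05 (14.4% of all genes), and 2.01% of all genes were called.

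The genotypes were next compared on corn oil alone. By limma 0 of the 10 genes passed in hCAR/hPXR against WT (0.0234% of all genes called), CARko/PXRko against WT (0.0391%), PXRko against WT (0.0234%) or between CARko/PXRko and PXRko mice (0.0156%). In that order 2, 1, 1 and 0 of them had an unadjusted p under 0.05, as had 1.45%, 3.31%, 1.72% and 2.76% of all genes. Per1 had the smallest, with a difference of -1.37 ± 0.42 between CARko/PXRko and WT mice (adjusted p = 1). It was -1.01 without CO CARko/PXRko replicate 2, the array with muscle transcripts. The Clock difference from WT was 0.54 ± 0.19 for hCAR/hPXR and 0.47 ± 0.19 for PXRko mice (adjusted p = 1 for both).

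Whether the treatment effects differed between genotypes was tested as the difference of the effects against WT, which share the WT groups. By limma 0 of the 10 genes passed for DCB in hCAR/hPXR (0% of all genes called) or CARko/PXRko mice (0%), and for CPA in hCAR/hPXR (0.0625%) or CARko/PXRko mice (0.0703%). For CPA, 2 and 3 of them had an unadjusted p under 0.05 (4.91% and 7.56% of all genes), and for DCB 0 in both (3.11% and 2.53%). The CPA effect on Dbp in CARko/PXRko mice differed from that in WT by -2.66 ± 1.04 (interval -4.82 to -0.51, adjusted p = 0.561). The corresponding values were 1.70 ± 0.59 for Per1 (adjusted p = 0.508) and -0.76 ± 0.27 for Nr1d1 (adjusted p = 0.538). A call in one genotype and none in another is therefore not shown to be a difference between genotypes for any of these genes.

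The genes also moved together between arrays of the same group. With each value expressed as its deviation from its group mean, Arntl ran opposite to Dbp over the 30 arrays, with a Pearson r of -0.87 and a Spearman rho of -0.74 (permutation of arrays within groups, two-sided; adjusted p = 0.00144 and 0.00273 over the 9 genes set against Dbp). Leaving out the 2 arrays whose Dbp deviation lay farthest from the median deviation, replicates 1 and 2 of CPA hCAR/hPXR, gave r = -0.76. Leaving out the 4 arrays with muscle transcripts gave r = -0.91. Nr1d2 ran with Dbp, with r = 0.80 and rho = 0.82 (permutation adjusted p = 0.00144 and 0.00243), and r = 0.86 without the 2 farthest arrays. Replicate 1 of CPA CARko/PXRko had the lowest array value of Dbp, Tef, Per3, Nr1d1 and Nr1d2 in the study, and replicate 2 of CPA hCAR/hPXR had the highest of Arntl and Clock.
The other relations were weaker. Clock gave r = -0.49 and rho = -0.62 (permutation adjusted p = 0.00144 and 0.00243), Per3 0.62 and 0.56 (0.0304 and 0.015), and Nr1d1 0.56 and 0.57 (0.023 and 0.015). Without the 2 farthest arrays these became r = -0.44, 0.43 and 0.46. Tef passed by rank only, with r = 0.58 and rho = 0.65 (permutation adjusted p = 0.107 and 0.00997), and r = 0.46 without them. Hlf, Per1 and Per2 did not pass, with r of 0.25, 0.05 and 0.35 (permutation adjusted p = 0.125, 0.84 and 0.152) and rho of 0.25, 0.26 and 0.31 (0.264, 0.281 and 0.212).

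**Figure D3:**
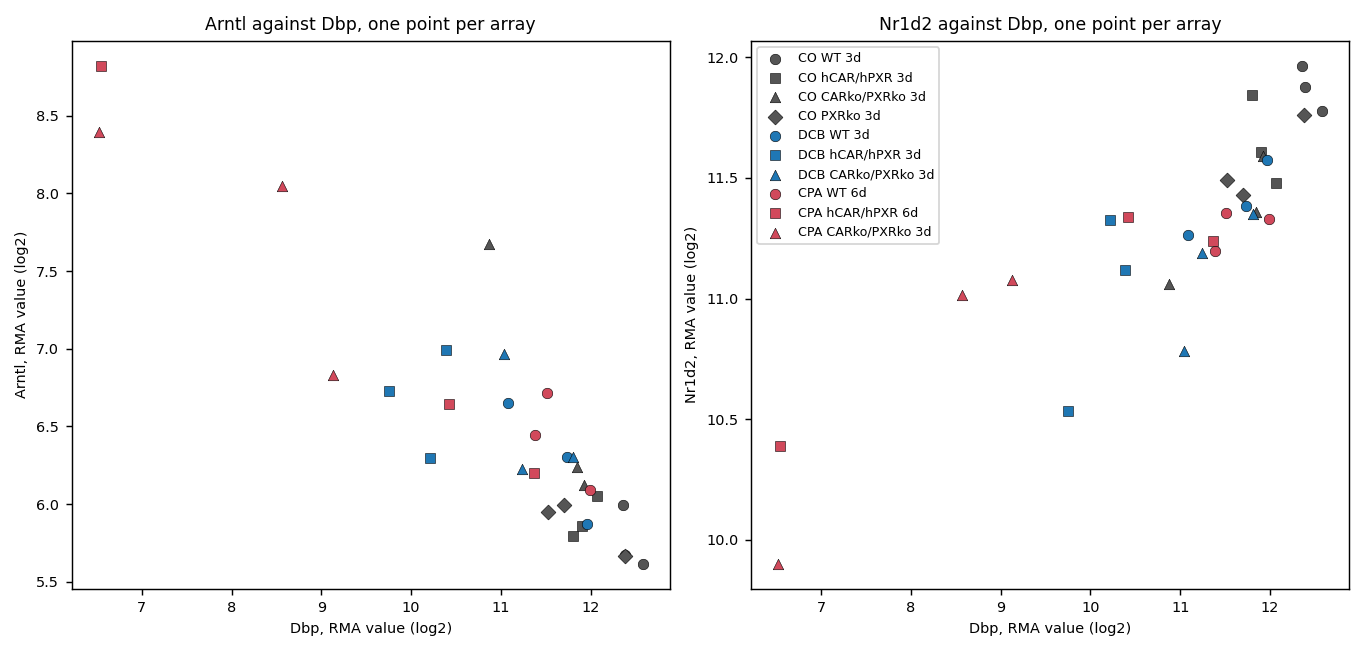
Log2 RMA values of Arntl (left) and Nr1d2 (right) against Dbp (horizontal axes) on each of the 30 arrays, with colour for treatment and shape for genotype. The arrays at the low end of Dbp, 6.52 and 6.55, hold Arntl values of 8.40 and 8.82 and Nr1d2 values of 9.90 and 10.39.

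The 10 genes had 26 probe sets annotated to them alone, which read different stretches of the transcript. Both Dbp probe sets gave the same order of CPA differences. The second, with a mean of 9.34 over the arrays, gave -2.97 ± 0.51 in CARko/PXRko (adjusted p = 0.00219), -2.12 ± 0.51 in hCAR/hPXR (adjusted p = 0.0276) and -0.95 ± 0.51 in WT mice (adjusted p = 0.704). Adjustment in this section was over all 45037 probe sets on the arrays. By the second probe set Dbp passed in hCAR/hPXR mice too.
The Clock probe sets disagreed on the genotype with the largest difference. The probe set with a mean of 7.93 gave 0.95 ± 0.15 in WT (adjusted p = 0.00211), 0.80 ± 0.15 in hCAR/hPXR (adjusted p = 0.00357) and 0.48 ± 0.15 in CARko/PXRko mice (adjusted p = 0.102). That with a mean of 7.96 gave 0.93, 0.67 and 0.39, with adjusted p-values of 0.0163, 0.0636 and 0.332, whereas the probe set used above was highest in CARko/PXRko mice. All 3 lay on the higher side under CPA in every genotype. The remaining one, with a mean of 4.62, exceeded the array median on 3 arrays of 30.
For Per3, 2 of 6 probe sets and for Arntl the second of 2 never exceeded the array median, and their CPA differences stayed between -0.09 and 0.09. The third Tef probe set, with a mean of 5.72, gave 0.37 ± 0.22 under CPA in WT mice, where the one used gave -0.27 ± 0.29.

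**Figure D4:**
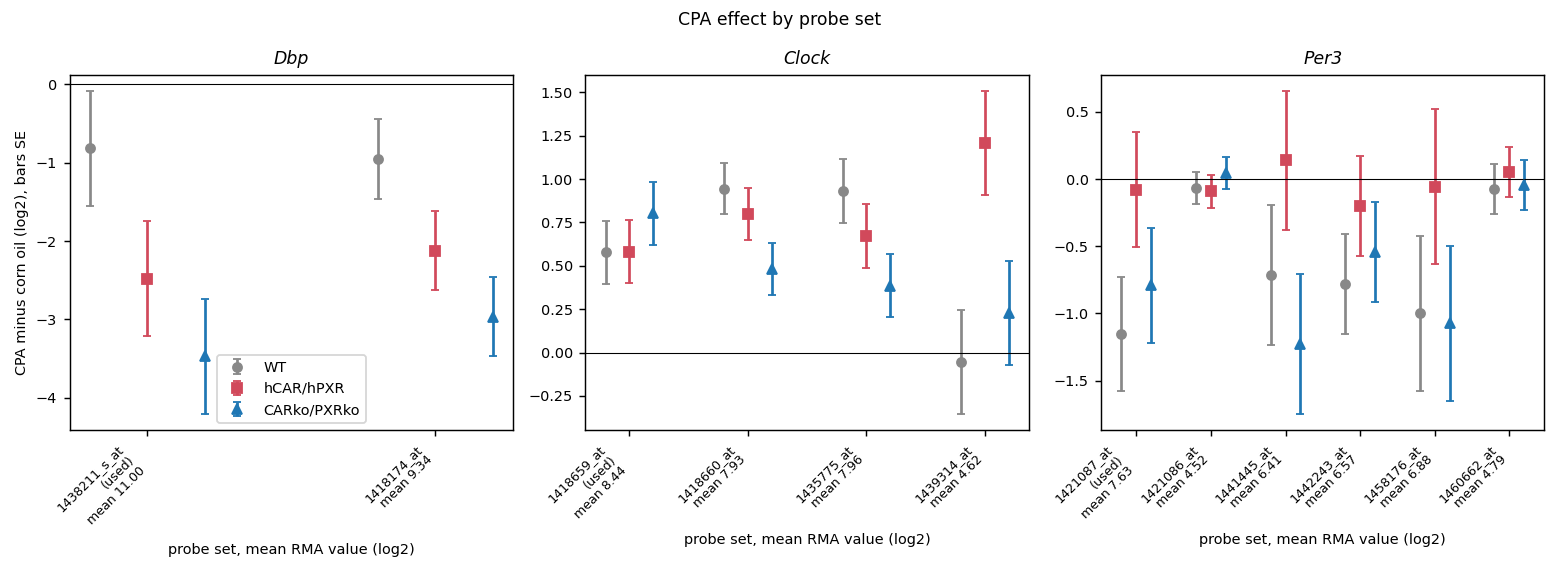
Log2 difference between CPA and corn oil (vertical axes, bars SE) for each probe set of Dbp, Clock and Per3 (horizontal axis, with the probe set's mean log2 value), in WT (grey circles), hCAR/hPXR (red squares) and CARko/PXRko mice (blue triangles). The Dbp probe sets order the genotypes alike, and the first and second Clock probe sets place CARko/PXRko mice at opposite ends.

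Of 13 other genes of the clock that were read, 11 were tested, and Npas2 and Bhlhe41 were too dim. Cry1, a cryptochrome that represses CLOCK and ARNTL together with the Period proteins, rose under CPA in CARko/PXRko mice by 1.94 ± 0.50 (adjusted p = 0.0237), from a group range of 6.17 to 6.60 on corn oil to 7.62 to 8.77. Without the muscle arrays it was 1.92 and did not pass (adjusted p = 0.0719). Bhlhe40, also called DEC1 and a repressor at E-boxes, fell under DCB in hCAR/hPXR mice by 1.37 ± 0.42 (adjusted p = 0.0464). These were the calls among 11 genes in the 6 treatment comparisons. The share of all genes called was 5.49% in the comparison that called Cry1 and 7.64% in that of Bhlhe40. Under CPA in hCAR/hPXR mice Cry1 ranged from 6.53 to 8.97 and did not pass (1.31).

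Among 11 liver genes known to follow the clock, 10 were tested and Por was not analysed here. CPA in CARko/PXRko mice raised 3 and lowered 1, where 5.49% of all genes were called. CPA in hCAR/hPXR mice raised 2, with 4.42% of all genes called. Elovl3, a fatty acid elongase, fell by 3.18 ± 0.70 in CARko/PXRko mice under CPA (adjusted p = 0.00882), with arrays from 7.01 to 8.39 against 8.75 to 12.17 on corn oil. Without the muscle arrays, one of which is a corn oil array, it was -4.29 (adjusted p = 0.000117). Cdkn1a, the cell cycle inhibitor p21, rose by 2.69 ± 0.59 in the same comparison (adjusted p = 0.00807). Lpin1, a phosphatidate phosphatase of lipid synthesis, rose by 3.01 ± 0.37 in humanised mice (adjusted p = 2.34e-05) and 1.89 ± 0.37 with both receptors deleted (adjusted p = 0.00365).
Nampt, the rate-limiting enzyme of NAD salvage, rose with CPA by 0.81 ± 0.19 in humanised mice (adjusted p = 0.0132) and by 0.66 ± 0.19 where both receptors were deleted (adjusted p = 0.043). Without the muscle arrays the difference in the double knockout was 0.60 and did not pass (adjusted p = 0.133). Nampt also rose by 0.62 ± 0.19 under DCB in hCAR/hPXR mice (adjusted p = 0.0448), although the arrays overlapped. Alas1, the rate-limiting enzyme of heme synthesis and a known target of CAR and PXR, rose by 2.32 ± 0.39 under DCB in hCAR/hPXR mice (adjusted p = 0.00081). Its mean under DCB was also higher in WT (13.46 against 11.93) and CARko/PXRko mice (13.51 against 12.57), without a call. None of the 10 passed under CPA or DCB in WT mice or under DCB in CARko/PXRko mice. The shares of all genes called there were 1.12%, 0.735% and 0.117%. In that order 3, 2 and 1 had an unadjusted p under 0.05 in limma, against 10.3%, 10.1% and 8.1% of all genes.

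Glucocorticoids reset the liver clock and act on Per1 among others, so 6 glucocorticoid-responsive genes were read as well. Fkbp5, a co-chaperone of steroid receptors, rose under CPA in all 3 genotypes, by 2.04 ± 0.29 in WT (adjusted p = 0.000412), 3.12 ± 0.29 in hCAR/hPXR (adjusted p = 5.05e-07) and 3.13 ± 0.29 in CARko/PXRko mice (adjusted p = 3.88e-07). Zbtb16, a transcription factor, rose by 2.66 ± 0.34 in humanised mice (adjusted p = 3.51e-05) and by 2.04 ± 0.34 in the double knockout (adjusted p = 0.000824). Dusp1, a MAP kinase phosphatase, rose by 1.79 ± 0.41 in hCAR/hPXR mice (adjusted p = 0.0118). Tsc22d3, also called GILZ, rose by 1.54 ± 0.37 in CARko/PXRko mice (adjusted p = 0.0152). The calls for Cdkn1a, Lpin1, Fkbp5, Zbtb16 and Tsc22d3 under CPA in CARko/PXRko mice held without the muscle arrays, with differences of 3.11, 1.91, 3.02, 2.18 and 1.45 (adjusted p from 6.07e-07 to 0.0396). CPA thus raised 1 of 6 in WT and 3 of 6 in both other genotypes. Under DCB 1 of 6 changed in hCAR/hPXR mice, where 7.64% of all genes were called. It was Klf9, a Krüppel-like repressor, which fell by 1.36 ± 0.29 (adjusted p = 0.00576). In the other genotypes 0 of 6 passed under DCB by limma, with 0.735% of all genes called in WT and 0.117% in CARko/PXRko mice. An unadjusted p under 0.05 was found for 1 in each, against 10.1% of all genes in WT and 8.1% in CARko/PXRko mice.

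**Figure D5:**
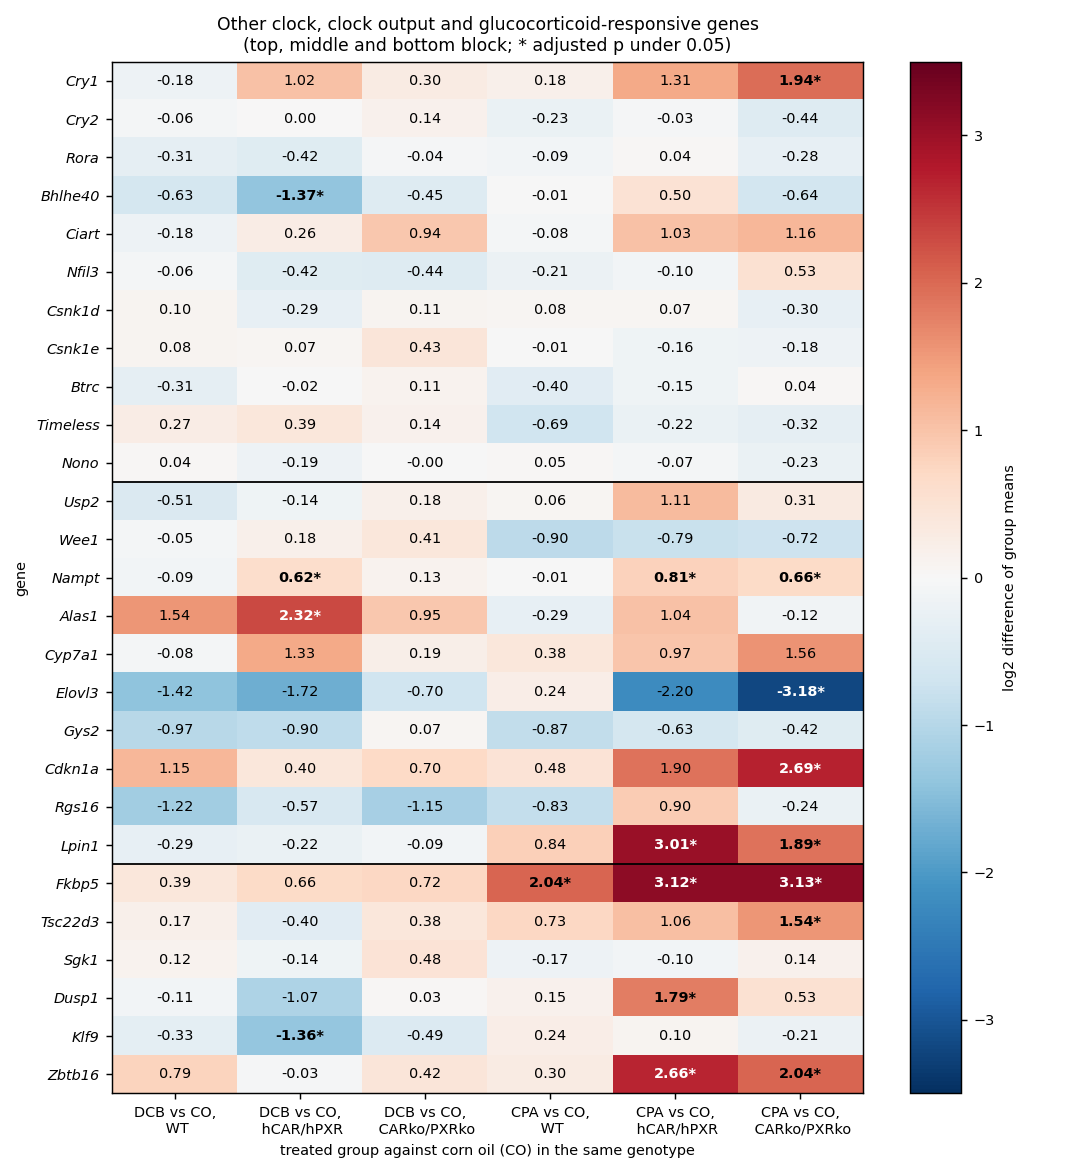
Log2 difference between each treated group and the corn oil group of the same genotype (columns) for 11 other clock genes, 10 clock output genes and 6 glucocorticoid-responsive genes (rows, top to bottom block), with stars at an adjusted p under 0.05. Fkbp5 is starred in all 3 CPA columns, and the top block has 2 starred cells, Cry1 and Bhlhe40.

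The genes whose 10 group means were most like those of Dbp were sought among 1894 genes whose group means spanned at least 1 log2 unit. They were Arrdc3 (r = 0.97), Zc3hav1 (0.97), Dsp (0.97), Apol7a (0.96) and Bmp2k (0.96), all of them lowest in the CPA CARko/PXRko group. For Arntl they were Cdkn1a (r = 0.93), Bmper (0.93), Ddit4 (0.92), Slc10a6 (0.92) and Lgalsl (0.91), all highest in that group. Between members, r over the group means was -0.94 for Dbp with Arntl, 0.91 with Nr1d2, 0.88 with Nr1d1 and -0.81 with Clock. These values describe 10 groups that share the arrays and their normalization, and they carry no test.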

How the data were processed

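The deposited values are one table of log2 probe set values for 30 Affymetrix arrays, made by the authors with RMA per the submitters' processing notes, which corrects background, normalizes between arrays and summarises probes. The sources used here do not give the RMA version or the chip annotation release. No raw scans were used, array number limits the precision, and read depth does not apply. Of 45037 probe sets, 34945 carried 1 gene symbol in the platform annotation, 932 several and 9160 none. The probe set with the highest mean stood for each of 18193 genes, and 12795 genes above the array median on at least 3 arrays were tested. limma 3.58.1 (R 4.3.3) was fitted with one mean per group over all 30 arrays (20 residual and 3.62 prior degrees of freedom), with Benjamini-Hochberg adjustment per comparison over all genes tested and calls at adjusted p under 0.05, for 17 comparisons. Relations between genes used 100000 permutations within groups, with scripts tested on simulated data. An array counted as holding muscle transcripts where the muscle marker median exceeded the WT corn oil level by over 1 (log2). Genes were named by membership of the lists, plus the 5 most correlated with Dbp and with Arntl. Some listed genes are not reported here. The members and lists were chosen with earlier results of these data known. Alternatives were other filters, normalizations, probe set rules, variance models, array weights, a replicate block, fits of the compared groups alone and leaving out arrays. No slide or scan date was used.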

Additional observations from a re-analysis of the deposited data

How the results depend on the processing

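Over 170 member differences, 2960 alternative values were computed: 0 called differences reversed, 22 lost their call, 27 gained one, and 131 uncalled values changed sign. The number of the 10 genes called moved as follows. With array weights it became 5 for DCB in hCAR/hPXR mice, 3 for CPA in WT mice, 3 for CPA in hCAR/hPXR mice, 0 for CPA in CARko/PXRko mice, 3 for CPA minus DCB in hCAR/hPXR mice, 0 for CPA minus DCB in CARko/PXRko mice, and 1 (Per1) for CARko/PXRko against WT mice on corn oil. With only the compared groups fitted it became 1, 4, 0, 0, 0 and 0 for the first 6 of these. With probe sets averaged per gene it became 1 for CPA in WT, 3 for CPA in hCAR/hPXR and 2 for CPA in CARko/PXRko mice. Leaving out one array at a time gave 2 to 4 for CPA in CARko/PXRko mice, 0 to 2 for CPA in hCAR/hPXR mice and 0 to 2 for CPA minus DCB in both hCAR/hPXR and CARko/PXRko mice. Without the arrays with muscle transcripts CPA minus DCB in CARko/PXRko mice had 0. The cause of these moves was not tested, beyond the fewer arrays that the last 2 settings and the compared groups alone use. A replicate block left all 17 counts as they were, 3 for CPA in CARko/PXRko mice among them. Replicate numbers did not pair the arrays: deviations of same-numbered arrays correlated between -0.59 and 0.57, with a median of 0.01. Scaling did not move the median of all genes by over 0.1. Arrays hold 3 values per group, and spread within groups limits Dbp, Arntl and the Period genes most.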
